A study of Rattus norvegicus with 4 samples.

Results

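Messenger RNA of 5 genes of the keratinising surface, Loricrin, Sprr3, Sprr1a, Krtdap and Serpinb12, was followed in oxyntic mucosa, the part of the rat stomach lining that makes acid. They were found as every probe set whose platform gene symbol is one of these names, which gave 5 of the 10411 genes named on the chip and 6 probe sets of the 15866 in the deposited table, 2 of them for Krtdap and 1 for each other gene. The genes were chosen by their signal differences between the octreotide LAR chips and the vehicle chip, so that contrast is given below as a description, with no test. The tissue was gastric corpus mucosa, scraped off in female Sprague-Dawley rats listed as 8 weeks old, 21 days after octreotide LAR at 5 mg per animal or after a matching volume of its vehicle. The rats had fasted for one night. Octreotide mimics somatostatin, which holds back gastrin, histamine and acid output, and its LAR form is an injected depot that releases the drug slowly. RNA of 6 treated animals was pooled in pairs for 3 Affymetrix RAE230A chips, here called pools 1 to 3, and RNA of 8 vehicle animals was pooled for 1 chip. The vehicle value of every gene is therefore a single measurement without an error, and a peculiarity of that pool cannot be told apart from an effect of treatment. For the vehicle sample the title and another label field name different treatments, and the title was followed.

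The cornified envelope is the tough protein shell that replaces the plasma membrane of a keratinocyte at the end of its differentiation. Transglutaminases cross-link its precursors, among them loricrin, involucrin and the small proline-rich proteins (SPRR), beneath the membrane of cells that have already filled with keratin. In the rat this programme runs in the skin, the oesophagus and the forestomach, whose keratinised squamous lining borders the glandular corpus, and it is not part of the differentiation of parietal, chief or mucous cells.

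The stretch before the gene's start is shown, as a description, for the genes that the promoter table of RefSeq holds. Its part in the differences between chips was not tested. Loricrin, Sprr1a and Krtdap, 3 of the 5, were matched by symbol, each with 250 bases on build GRCr8 that end just before the annotated start, written 5′ to 3′ on the strand of the gene. Capitals mark matches to TGANTCA, the core that the AP-1 factors bind, and to TATAAA, the TATA box. Loricrin lies on the minus strand at chr2:180256573-180256822, Sprr1a on the minus strand at chr2:180752626-180752875, and Krtdap on the plus strand at chr1:95165612-95165861.
Loricrin: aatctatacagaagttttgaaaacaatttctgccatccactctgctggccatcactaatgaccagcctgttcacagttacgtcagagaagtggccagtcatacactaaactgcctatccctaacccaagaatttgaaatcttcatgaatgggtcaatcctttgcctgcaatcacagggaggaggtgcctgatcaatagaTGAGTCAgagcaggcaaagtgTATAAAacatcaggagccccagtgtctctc
Sprr1a: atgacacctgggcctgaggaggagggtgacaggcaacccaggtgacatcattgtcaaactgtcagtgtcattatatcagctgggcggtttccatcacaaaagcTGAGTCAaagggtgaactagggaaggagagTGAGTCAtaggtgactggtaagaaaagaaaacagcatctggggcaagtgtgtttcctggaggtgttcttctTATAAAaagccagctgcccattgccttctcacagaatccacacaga
Krtdap: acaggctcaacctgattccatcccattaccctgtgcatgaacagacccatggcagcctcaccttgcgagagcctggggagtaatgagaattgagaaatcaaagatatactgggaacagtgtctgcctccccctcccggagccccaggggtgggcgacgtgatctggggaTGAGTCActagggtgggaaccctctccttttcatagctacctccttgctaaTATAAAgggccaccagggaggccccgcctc

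Each of the 3 stretches held TGAGTCA and TATAAA. In Loricrin the AP-1 core spanned bases 51 to 45 before the start, and in Krtdap bases 81 to 75. Sprr1a held the core at bases 147 to 141 and again at bases 117 to 111. The TATA box lay at bases 30 to 25 in both Loricrin and Krtdap and at bases 46 to 41 in Sprr1a. Both strands were searched, TGANTCA reads as itself on the other strand, and no match overlapped another. Of 33469 promoter stretches of this length in the table, 6.34% held the AP-1 core, 12.9% held the TATA box and 1.02% held both. Of the stretches of other cornified envelope genes, 4 of 26 held the AP-1 core and 8 of 26 the TATA box, and of those of stratified keratins 1 of 6 and 2 of 6. These motifs were chosen after the sequences were seen, and a match describes letters, not a bound site.

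**Figure D1:**
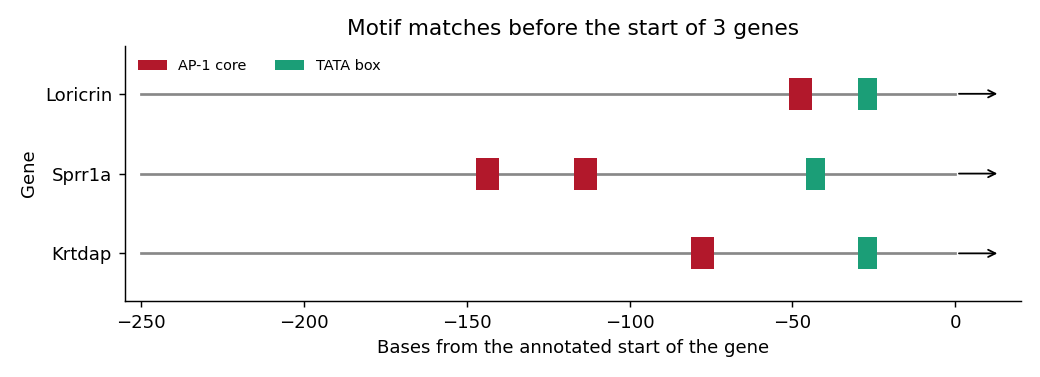
Matches to the AP-1 core (red) and the TATA box (green) in the 250 bases before the annotated start of Loricrin, Sprr1a and Krtdap, with the horizontal axis in bases from the start and the arrow giving the direction of the gene. The TATA box lies at bases 30 to 25 in Loricrin and Krtdap and at 46 to 41 in Sprr1a, each with at least 1 AP-1 core farther from the start.

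The genes are spread over chromosomes 1, 2 and 13. Loricrin, Sprr3 and Sprr1a lie on rat chromosome 2 in the RefSeq gene table, in the cluster of envelope genes known as the epidermal differentiation complex. Sprr3 and Sprr1a are direct neighbours, with 0 coding genes between them, and 15 coding genes separate Loricrin from Sprr3. Krtdap, on chromosome 1, follows Dmkn, the gene of dermokine, another secreted product of differentiating keratinocytes. Serpinb12, on chromosome 13, stands between Serpinb5 and Serpinb13 in a cluster of clade B serpins, inhibitors of proteases that mostly stay inside the cell.

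All 4 chips had similar overall brightness. The median signal was 223.7, 233.4 and 228.1 on pools 1, 2 and 3 and 225.9 on the vehicle chip, and the mean without the outer 2% at each end lay between 496.8 and 497.2. Each chip had a fluidics module of its own, so module and pool cannot be told apart. Differences are given on the scale of log2(signal + 16), and folds are taken from these differences. The added 16 shrinks both, most of all for dim probe sets. Testing took in the 9520 probe sets whose mean on that scale reached the 40th percentile, a signal of 144.7. All 6 probe sets of the 5 genes passed, but Sprr3 and Serpinb12 had a vehicle signal under that level and passed through their treated signals.

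All 6 probe sets were higher on each treated chip than on the vehicle chip, where 25.0% of the tested probe sets were (24.0% lay below vehicle on each), and 5 of 6 were at least 2-fold higher on each, where 0.294% were. Since this contrast chose the genes, nothing is read from these shares. The median log2 difference of the 5 genes was 2.16, 1.71 and 1.28 on pools 1, 2 and 3, with the brighter probe set standing for Krtdap. Their mean differences ran from 1.16 for Serpinb12 to 2.28 for Loricrin. The median over all tested probe sets was -0.00308. On the vehicle chip these probe sets were of middling to low rank, between percentile 27.8 and percentile 53.9 of all probe sets.

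Loricrin, the glycine-rich main protein of the envelope in epidermis, had signals of 1274.7, 1041.2 and 890.3 in treated pools 1, 2 and 3, against 204.7 in the vehicle pool. Every treated pool lay above the vehicle pool, in the contrast that chose the gene. The mean was 1069 ± 194 (SD, n = 3) on treated chips, and the log2 differences were 2.55, 2.26 and 2.04. The pool nearest to vehicle was still 4.11-fold above it. Loricrin was at percentile 88.2, 85.3 and 82.6 of all probe sets on the treated chips and at percentile 47.4 on the vehicle chip. By size of the mean difference it ranked as number 3 of the 9520 probe sets tested.

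Sprr3 and Sprr1a encode small proline-rich proteins, which act as cross-bridges between other envelope proteins. Sprr3 had signals of 680.1, 534.1 and 422.0 in treated pools 1, 2 and 3, against 139.4 in the vehicle pool. The treated mean was 545 ± 129 (SD, n = 3), and the log2 differences were 2.16, 1.82 and 1.49. No treated pool came near the vehicle value, the closest being 2.82-fold above it. Sprr1a had signals of 1379.0, 792.0 and 661.4 in treated pools 1, 2 and 3, against 263.4 in the vehicle pool. Here pool 1 stood apart from the other two treated pools, and all of them lay above the vehicle pool. The treated mean was 944 ± 382 (SD, n = 3), and the log2 differences were 2.32, 1.53 and 1.28. Taken from these differences, the fold ran from 2.42 to 4.99 between pools. The SPRR family holds several similar genes, and whether these probe sets also bind their transcripts was not tested.

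Krtdap, keratinocyte differentiation associated protein, is a small secreted product of keratinocytes as they leave the basal layer. Its brighter probe set had signals of 746.4, 710.4 and 497.5 in treated pools 1, 2 and 3, against 205.5 in the vehicle pool. Its dimmer probe set had 717.5, 351.4 and 322.2, against 216.3. The annotation ties both probe sets to the same transcript record, and whether either also binds other transcripts was not tested. The probe sets were close to each other on pool 1 and on the vehicle chip and disagreed on pools 2 and 3. The log2 differences were 1.78, 1.71 and 1.21 for the brighter probe set and 1.66, 0.66 and 0.54 for the dimmer one. The fold of the mean was thus 2.97 by one and 1.94 by the other. Both placed Krtdap above vehicle on every treated chip, and the size of its difference on pools 2 and 3 depends on the probe set.

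Serpinb12 encodes a clade B serpin, which in humans inhibits trypsin-like proteases. It had signals of 217.9, 218.5 and 221.2 in treated pools 1, 2 and 3, against 89.1 in the vehicle pool. The treated pools were nearly identical and lay above the vehicle pool. The treated mean was 219 ± 1.76 (SD, n = 3), and the log2 differences were 1.15, 1.16 and 1.17. With a vehicle signal this dim, the size depends on the pseudocount, and it was 1.29 with a pseudocount of 1 and 0.89 with 64.

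**Figure D2:**
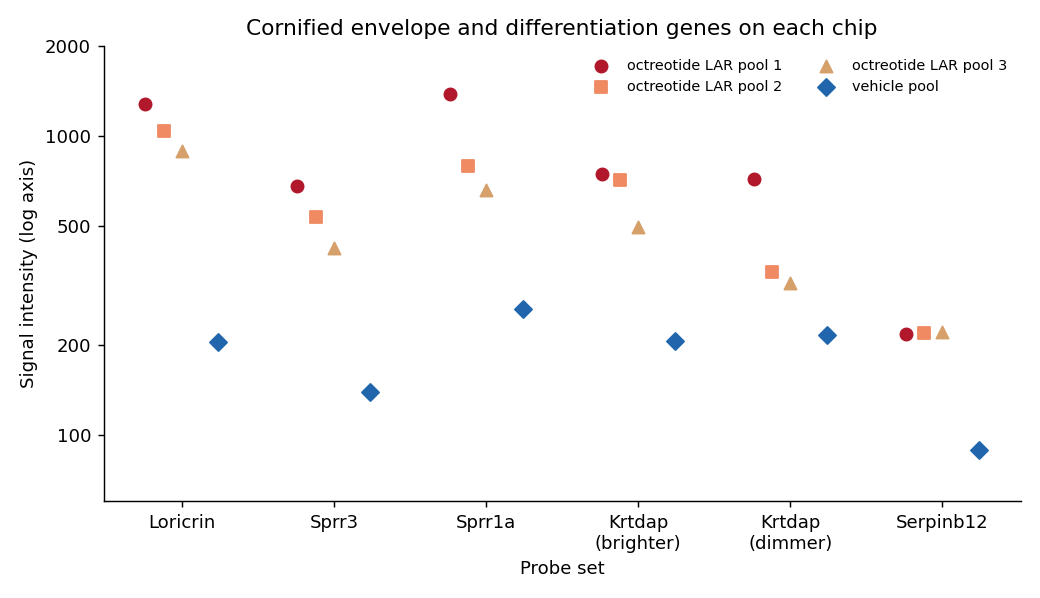
Signal intensity (log axis) of the 6 probe sets on each chip, with the 3 octreotide LAR pools (circle, square, triangle) left of the vehicle pool (diamond); each point is 1 chip and there are no error bars. Every treated point lies above its vehicle point, pool 1 is highest in 5 of 6 probe sets, and the 3 treated points of Serpinb12 coincide near 219.

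The height of the envelope genes varied among the treated pools. Pool 1 had the highest treated signal in 5 of the 6 probe sets and pool 3 the lowest in the same number, whereas over all tested probe sets pool 1 was highest in 34.2% and pool 3 lowest in 30.5%. Serpinb12 was the exception, with pool 3 highest and pool 1 lowest by a margin of a few signal units. Over the 5 genes the median SD of the log2 signal among treated pools was 0.31, against a median of 0.18 over all tested probe sets. Leaving out pool 1 gave 0.18, leaving out pool 2 gave 0.4 and leaving out pool 3 gave 0.2, against 0.14, 0.15 and 0.16 over all tested probe sets, so much of this spread lies between pools 1 and 3. The SD was 0.54 for Sprr1a, at percentile 96.8 of the tested probe sets, and 0.61 for the dimmer Krtdap probe set, at percentile 98.2. It was 0.33 for Sprr3 and 0.26 for Loricrin, at percentiles 83.7 and 70.1. Serpinb12 had an SD of 0.0108, at percentile 0.231. With 1 chip per pool, a difference between treated pools has no replicate and was not tested.

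**Figure D3:**
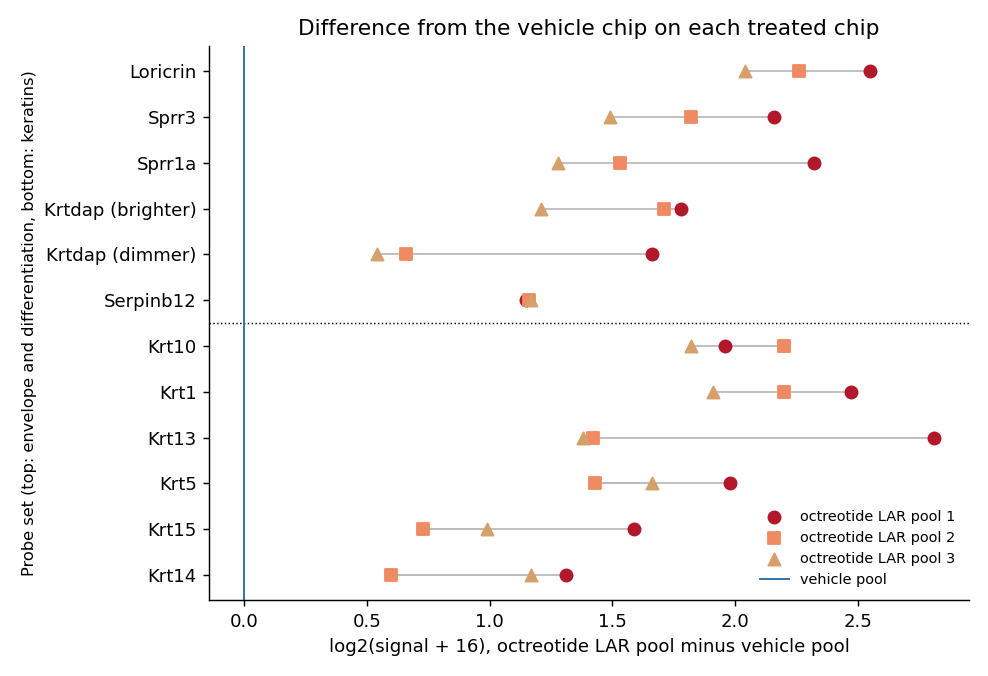
Difference of log2(signal + 16) between each octreotide LAR pool (circle, square, triangle) and the vehicle pool (vertical line at 0) for the 6 probe sets (above the dotted line) and 6 stratified keratins (below it). Only keratins that passed the filter are shown, 3 of them through their treated signals, and Krt4, below vehicle on pools 2 and 3, is not. All points shown lie right of the vehicle line. The differences of Sprr1a, of the dimmer Krtdap probe set and of Krt13 are larger on pool 1 than on pools 2 and 3.

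**Figure D4:**
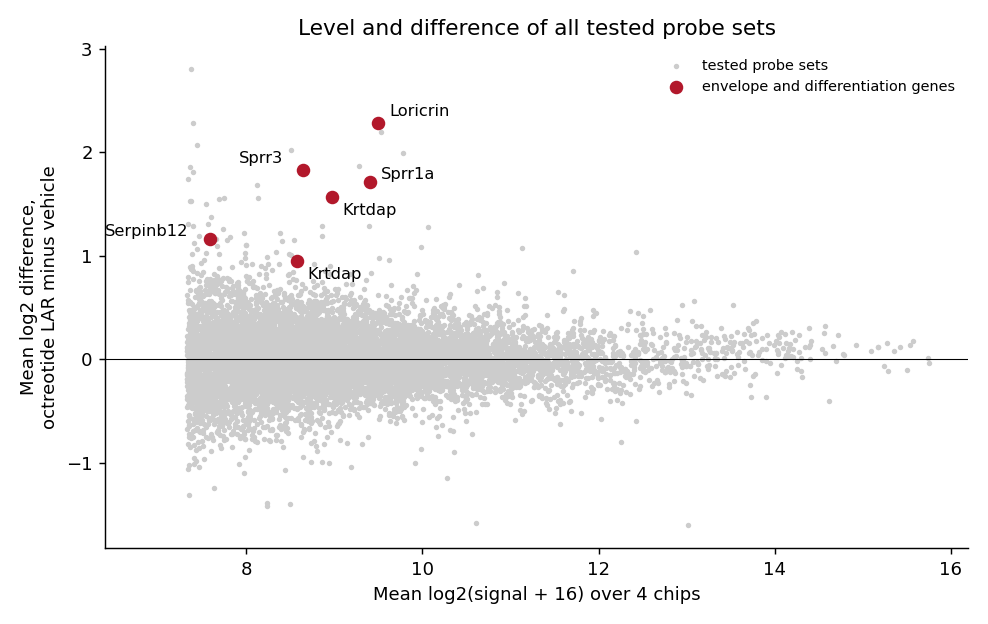
Mean log2(signal + 16) over the 4 chips (horizontal) against the mean log2 difference, octreotide LAR minus vehicle (vertical), for the 9520 tested probe sets (grey) and the 6 probe sets of the 5 genes (red). The red points lie between 0.95 and 2.28 on the vertical axis, above the bulk of probe sets of similar level.

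Keratins of stratified epithelium, which fill the cells that build the envelope, were also higher on the treated chips. They are a list chosen, like the others here, with earlier results of these data known. Of 7 keratins named on the chip, 6 passed the filter, and 2 of these rose in limma's test over all probe sets, which called 0.105% of probe sets, 0.0945% higher and 0.0105% lower. Those 2 were Krt1 and Krt10, the pair of the suprabasal layers. Krt1 had signals of 1287.8, 1069.3 and 871.8 in treated pools 1, 2 and 3, against 219.8 in the vehicle pool. It was 2.19 higher on the log2 scale (95% interval 1.68 to 2.71, limma adjusted p = 0.00121). Krt10 had 1200.1, 1423.0 and 1090.5, against 296.7, and was 1.99 higher (95% interval 1.53 to 2.46, limma adjusted p = 0.00121). Neither keratin passed when dim probe sets were kept (limma adjusted p = 0.0946 for each) or when the spread had no trend (0.0711 for each). Krt13, of internal stratified epithelia, had 1632.8, 610.4 and 594.5, against 218.6, and did not pass (limma adjusted p = 0.198). Krt5, of the basal layer, had 443.0, 297.0 and 350.3, against 100.2, and did not pass either (limma adjusted p = 0.0696). Krt5 is 1 of 3 keratins here whose vehicle signal lay under the filter level and that were tested through their treated signals. Krt13 and Krt5 passed in the fits that left out 1 treated pool. Those fits rest on fewer treated chips and on the same lone vehicle chip. They also called more probe sets than the main fit, so nothing is read from these passes. The median log2 difference of the 6 keratins was 1.97, 1.42 and 1.52 on pools 1, 2 and 3, and pool 1 had the highest treated signal in 6 of the 7. Krt4, left out by the filter, went both ways, with 363.0, 23.0 and 14.4 on the treated pools, against 134.9.

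The other genes listed for the envelope that passed the filter lay nearer to vehicle than the 5 genes. Since this contrast chose the 5 genes, nothing is read from that. Of 11 such genes named on the chip, 8 passed the filter, and 0 passed the limma test in either direction, in a fit where 4.57% of all tested probe sets had an unadjusted p under 0.05. Their median log2 difference was 0.22, and 4 of 8 were above vehicle on each treated chip. The 4 brightest are made in many epithelia. S100a11, a calcium-binding protein found in envelopes, had 3632 ± 690 (SD, n = 3) on treated chips and 2765.2 on the vehicle chip, and S100a16, of the same family, had 2953 ± 207 (SD, n = 3) and 2623.3. Cstb, the protease inhibitor cystatin B, had 2376 ± 243 (SD, n = 3) and 2084.8, and Anxa1, annexin A1, had 1100 ± 312 (SD, n = 3) and 1045.3. Involucrin (Ivl), an early scaffold of the envelope and named here after its values were seen, was dim and was left out by the filter. It had 68.9, 39.6 and 20.5 on pools 1, 2 and 3, against 11.4, with pool 1 again the highest. Its mean log2 difference was 1.02. Tgm1, the keratinocyte transglutaminase, also left out by the filter and named in the same way, had 48.2, 97.0 and 66.8, against 61.1, on both sides of the vehicle value.

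Among other products of differentiating keratinocytes, 7 of 15 named on the chip passed the filter and 1 rose, where 0.0945% of all tested probe sets did. This was Lgals7, a galectin of stratified epithelia, with 268.2, 212.8 and 283.8 in treated pools 1, 2 and 3, against 22.4 in the vehicle pool. It was 2.81 higher on the log2 scale (95% interval 1.99 to 3.63, limma adjusted p = 0.00859). With so dim a vehicle signal it entered the test through its treated signals alone, and without the filter it did not pass (limma adjusted p = 0.556). Its size depends on the pseudocount, from 1.88 with 64 to 3.44 with 1. Pool 1 was not the highest there. Asprv1, a protease of differentiating keratinocytes left out by the filter and named after its values were seen, had 268.6, 225.7 and 105.6, against 24.9. Fabp5, an epidermal fatty acid binding protein, had 3391 ± 256 (SD, n = 3) on treated chips and 2410.2 on the vehicle chip, and Cst6, cystatin M, had 578 ± 117 (SD, n = 3) and 544.7. Neither passed. Dmkn, the neighbour of Krtdap, had 654.5, 596.6 and 498.8, against 354.7, and did not pass; its log2 difference was 0.68 (95% interval 0.17 to 1.20). Sbsn, suprabasin, a secreted keratinocyte protein, had 1366.8, 1278.9 and 1122.3, against 1443.6, so it lay below vehicle on each treated chip and did not pass.

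Of the other clade B serpins, 3 of 6 named on the chip passed the filter. Of these 3, 0 passed the test, where 0.105% of all tested probe sets did. Serpinb1a, an inhibitor of neutrophil proteases, had 4748 ± 324 (SD, n = 3) on treated chips and 4323.9 on the vehicle chip, and Serpinb6a had 1244 ± 128 (SD, n = 3) and 923.1. Serpinb9, an inhibitor of granzyme B, had 368 ± 34.3 (SD, n = 3) and 339.9. The median log2 difference of the 3 was 0.13.

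Junction genes and factors of the basal layer were tested next. Of the desmosome and junction genes, 6 passed the filter and 0 passed the test, where 0.105% of all tested probe sets did. The median log2 difference of the 6 was 0.28. Dsp, desmoplakin, had 4035 ± 652 (SD, n = 3) on treated chips and 3662.9 on the vehicle chip, and Jup, plakoglobin, had 1867 ± 208 (SD, n = 3) and 1529.9. Dsc2, a desmosomal cadherin, had 1027 ± 117 (SD, n = 3) and 832.7, and Perp, a desmosome-associated protein, had 1547 ± 156 (SD, n = 3) and 1899.9. A dimmer Perp probe set had 943.3, 855.9 and 978.8 in treated pools 1, 2 and 3, against 847.6, so the Perp probe sets disagree in direction. These desmosome genes are also used by simple epithelia. Cldn1, a tight junction claudin that was left out by the filter and is named after its values were seen, had 112.8, 151.3 and 108.7, against 17.5. Of 11 basal layer and stratification genes tested, 0 passed, against the same 0.105%, and the median of the 11 was 0.17. Klf4, a transcription factor of the suprabasal epidermis and of gastric epithelium, had 3337 ± 310 (SD, n = 3) on treated chips and 2115.8 on the vehicle chip and did not pass (limma adjusted p = 0.444). Klf5, its proliferative relative, had 1236 ± 525 (SD, n = 3) and 1087.5, Elf3 had 1982 ± 136 (SD, n = 3) and 1818.8, and Itgb4, the integrin of hemidesmosomes, had 1433 ± 135 (SD, n = 3) and 1209.3.

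Over these 6 lists together, 41 of 62 named genes were tested. Of the 41, 3 rose (Krt1, Krt10 and Lgals7) and 0 fell, where 0.0945% of all tested probe sets rose and 0.0105% fell. The median log2 difference was 0.28, and 25 of 41 were above vehicle on each treated chip. Of these 25, 5 had a vehicle signal under the filter level and passed through their treated signals, as did 1 of the 3 called genes, Lgals7. Among the 35 tested genes with a vehicle signal at or above that level, 20 were above vehicle on each treated chip. The share over all tested probe sets was 25.0%, but it was not limited by vehicle signal or to 1 probe set per gene. The lists were chosen with earlier results known, so nothing is read from this. Of the 21 genes left out by the filter, 7 were above vehicle on each treated chip and 2 below. Without the filter, 0 of 62 passed, and without a trend of the spread 1 of 41 did, Lgals7. The count was larger in each fit without 1 treated pool. The count over all probe sets was larger too, so nothing is read from these rises.

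**Figure D5:**
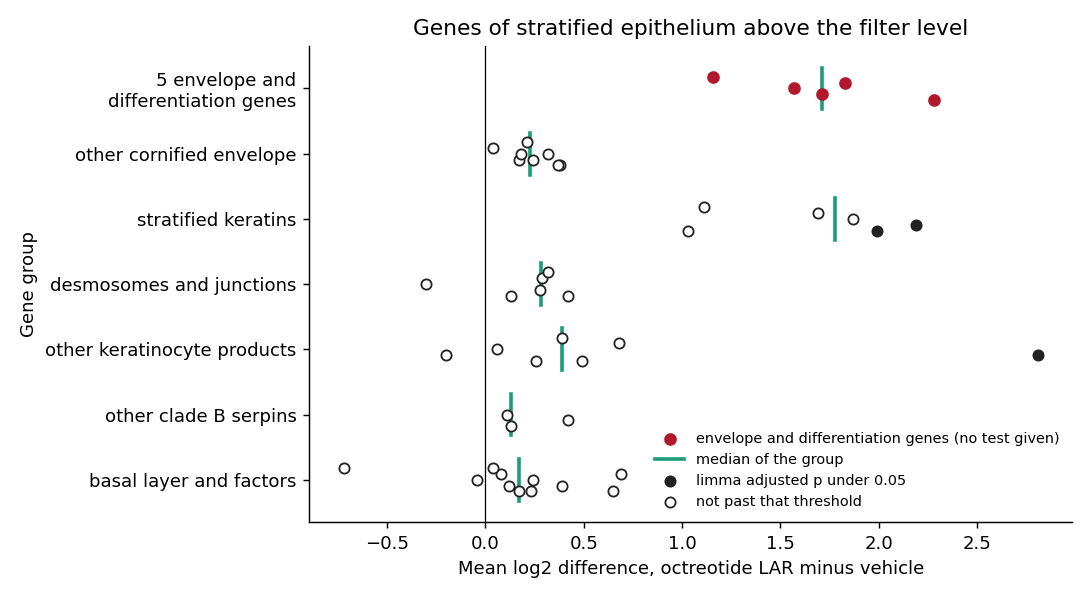
Mean log2 difference, octreotide LAR minus vehicle, of the 5 genes (red, brightest probe set each) and of the tested genes of 6 lists of stratified epithelium; each point is 1 gene, filled black where the limma adjusted p was under 0.05, and the green bar is the median. Medians are 1.71 for the 5 genes, which this contrast chose, 1.78 for the stratified keratins and 0.13 to 0.39 for the other 5 lists.

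By likeness of pattern, the root mean square distance of a gene's 3 log2 differences from the median of the 5 genes was taken over the 3 treated chips, for 7145 other tested genes. The 8 nearest were Pygm at 0.27, Krt5 at 0.293, Krt13 at 0.417, Krt10 at 0.439, B3galt5 at 0.47, Krt1 at 0.495, Dlg5 at 0.498 and Brsk1 at 0.552. Of the 8, 4 were stratified keratins, of which 6 stood among the 7145, and 5 had a vehicle signal under the filter level and were tested through their treated signals. The measure uses the contrast that chose the genes, so the ranking is a description. The 5 genes themselves lay at 0.138 for Sprr1a, 0.141 for Sprr3, 0.223 for Krtdap, 0.584 for Loricrin and 0.668 for Serpinb12, so Loricrin and Serpinb12 were farther from their own median than these 8. Pygm, the muscle glycogen phosphorylase, had 295.4, 282.5 and 225.4 on pools 1, 2 and 3, against 79.5. B3galt5, a galactosyltransferase, had 236.4, 247.5 and 212.9, against 43.0. All of these differences share the 1 vehicle chip.

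Markers of the tissue and of its neighbours were read on the same chips. The 7 squamous markers are the same stratified keratins as above, so they add no separate reading. Of these 7, 6 were above vehicle on each treated chip. The summed signal of the 7 was 5600, 3797 and 3423 on pools 1, 2 and 3, against 1192. None was at 0 on any chip, and the lowest value was the 14.4 of Krt4. In tissue RNA, a larger number of squamous cells and more of these transcripts per cell cannot be told apart, and the part of squamous tissue in the differences of the envelope genes was not tested. Keratins and other markers of interfollicular epidermis and hair were listed, and 0 of 12 were named on the chip. Markers of the glandular mucosa were bright. The summed signal of 4 parietal markers was 73953, 65434 and 62432 on the treated pools, against 70231, most of it from the proton pump genes Atp4a and Atp4b. The other 2 were below vehicle on each treated chip without passing the test, the potassium channel genes Kcnq1 (log2 difference -0.58) and Kcne2 (-0.37). That of 3 chief cell markers, the pepsinogens Pgc and Pga5 and intrinsic factor Cblif, was 84529, 81304 and 75234, against 83307. Cym, the chief cell protease chymosin, was not in that sum and had 3952.1, 8203.8 and 7560.9, against 19071.1 (log2 difference -1.60, limma adjusted p = 0.0696). Other listed chief cell genes outside the sum did not all go that way. Lipf, dim and left out by the filter, had 79.8, 112.7 and 87.8, against 22.1, and Bhlha15 had 604.6, 695.5 and 781.2, against 768.8. The summed signal of 3 surface mucous markers was 118745, 120734 and 114548, against 105766, above vehicle for each of the 3. That of 4 enterochromaffin-like cell markers was 7046, 7189 and 7491, against 14788, below vehicle for each of the 4. Of these 4, Hdc, which makes histamine, fell in the limma test (log2 difference -1.59, limma adjusted p = 0.00268). Of 6 pancreatic acinar markers, 4 were below vehicle on each treated chip, and the sum was 3691, 3825 and 3208, against 5470. Most of that sum came from Ctrb1, with 2545.0, 2745.3 and 2059.7, against 3107.2. Smooth muscle markers summed to 47338, 38875 and 35679, against 40203, and leukocyte markers to 2727, 2627 and 3164, against 2298. Most of the leukocyte sum came from Cd74, with 2412.1, 2253.5 and 2906.0, against 2123.8. It was the only leukocyte marker that passed the filter. Pool 1 was thus also the highest treated pool in the squamous, parietal, chief and smooth muscle sums, and its part in the order of the envelope genes was not tested.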

How the data were processed

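Affymetrix RAE230A chips measured scraped oxyntic mucosa: 3 octreotide LAR chips and 1 vehicle chip, grouped by sample title. The deposited values are linear signal intensities, 1 for each probe set and chip; how they were computed and scaled is not stated in the labels or file headers. Equal trimmed means are what scaling to 1 target would give, and a change in total messenger RNA cannot then be seen. Probe sets were named from the platform annotation, updated by Entrez ID to GRCr8 symbols (12748 of 12783 matched). Signals were taken as log2(signal + 16), filtered at the 40th percentile of the mean, and 9520 probe sets were tested in R 4.3.3 by limma 3.58.1 (lmFit, eBayes with a trend, 2 residual and 11.5 prior degrees of freedom, two-sided, Benjamini-Hochberg, threshold 0.05), assuming that the vehicle chip varies like the treated ones. Where a gene had several probe sets, its brightest stood for it. The number of chips limits the precision. The 5 genes and all lists were chosen with earlier results of these data known. The text names every probe set of the 5 genes and the 8 genes nearest in pattern. In each epithelial list it names the 4 brightest tested genes and those past the threshold. Krt4, Ivl, Tgm1, Asprv1, Cldn1, Lipf, Bhlha15, the dimmer Perp probe set and marker sums were added. Alternatives changed the pseudocount, filter, scaling, moderation, probe set choice and treated chips.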

Additional observations from a re-analysis of the deposited data

How the results depend on the processing

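The median log2 difference of the 5 genes was 1.71 and stayed between 1.56 and 1.76 under other pseudocounts, scalings and probe set choices and between 1.46 and 1.93 without 1 treated pool. No gene changed direction under the 8 alternatives run for each; Loricrin, Sprr3, Sprr1a and Krtdap moved by less than their spread between pools, and Serpinb12, whose pools hardly differ, moved to 1.29 and 0.89 with pseudocounts of 1 and 64. The median SD among treated pools, 0.31 with all pools, ranged from 0.18 to 0.4 without 1 pool (0.18 without pool 1, 0.2 without pool 3). The count of 10 called probe sets became 0 without the filter, where 776 had an unadjusted p under 0.05, 5 with quantile normalization, 5 with chips centred on their 75th percentile, and 1 where the moderated spread had no trend; it ranged from 31 to 55 without 1 treated pool. The 3 called epithelial genes became 0 without the filter and 1, Lgals7, without the trend, and numbered 5 to 6 without 1 treated pool: Krt13 and Krt5 joined whichever pool was left out, Klf4 without pool 1 and Krt15 without pool 2. Over the alternatives the limma adjusted p ran up to 0.0946 for Krt1 and for Krt10 and up to 0.556 for Lgals7. Fewer chips and more probe sets tested are part of how these fits are built. Nothing is read from the larger counts without 1 treated pool. The cause of the other changes was not tested. No paired analysis was possible, because the treated and vehicle pools hold different animals and the replicate numbers give no pairing. With 1 vehicle chip, no spread of vehicle pools can be had.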
